A study of Mus musculus with 2 samples.

Results

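The alcohol dehydrogenase family was followed here through its 4 genes Adh1, Adh4, Adh5 and Adh7, of 43346 genes in the tables, in total RNA from the stomach of mouse embryos. The members were matched by gene identifier in the gene and transcript tables of both libraries, and the family was picked because Adh1 differed about 3-fold between the pools. That difference is therefore given as a description, with no test. The study holds 1 group with 2 biological replicates of B6NCrl embryos at day 15.5, each a pool of male and female embryos with the same donor record. Replicate 1 pooled the stomachs of 78 embryos and replicate 2 those of 62. No treatment, mutation or second stage was included, and the embryos are recorded as healthy.

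Alcohol dehydrogenases are zinc enzymes that use NAD+ to oxidise alcohols to aldehydes. Class I (Adh1) acts on ethanol and also on retinol, the precursor of retinoic acid; class II (Adh4) is known mainly from liver. Class III (Adh5) is the broadly expressed enzyme that clears formaldehyde bound to glutathione and reduces S-nitrosoglutathione, and class IV (Adh7) is known as a retinol-oxidising enzyme of the adult stomach and upper digestive epithelium. The aldehydes are passed on to aldehyde dehydrogenases.

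The libraries held 43209506 expected counts on genes in replicate 1 and 44257493 in replicate 2, and 15558 genes reached 1 TPM (a length-corrected level, scaled to the same total in each library) in both. Added ERCC spike-in RNAs took 1.88% of the counts in replicate 1 and 2.999% in replicate 2. The stomach mesenchyme factor Barx1 was at 141.97 TPM in replicate 1 against 166.36 TPM in replicate 2, and all 8 general epithelial markers were detected. Markers of liver and exocrine pancreas were also detected, in 14 of 14 and 8 of 8 genes, so a level in a pool does not show which organ's cells held the transcript. Errors are SDs over the 2 libraries (n = 2), intervals cover counting error only, and fewer cells of a type cannot be told apart from less RNA per cell in such bulk pools.

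All members lie on the plus strand of chromosome 3 (mm10), inside a cluster of 237.74 kb. It runs from Adh7 (chr3:138217760-138233382) through Adh1 (chr3:138260991-138290698) and Adh4 (chr3:138415466-138430892) to Adh5 (chr3:138443093-138455499). Adh6a, Adh6b and the pseudogene Adh6-ps1 lie between Adh1 and Adh4. Of the 4 members 2 reached 1 TPM in both libraries, as did 15558 of all 43346 genes. The other 2 members stayed below it in both. Adh5 and Adh1 were the abundant ones, and Adh7 and Adh4 the rare ones. Adh4 and Adh5, which are separated by 12.2 kb, had the lowest and the highest mean TPM of the 4 members. Whether position bears on the levels was not tested.

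**Figure D1:**
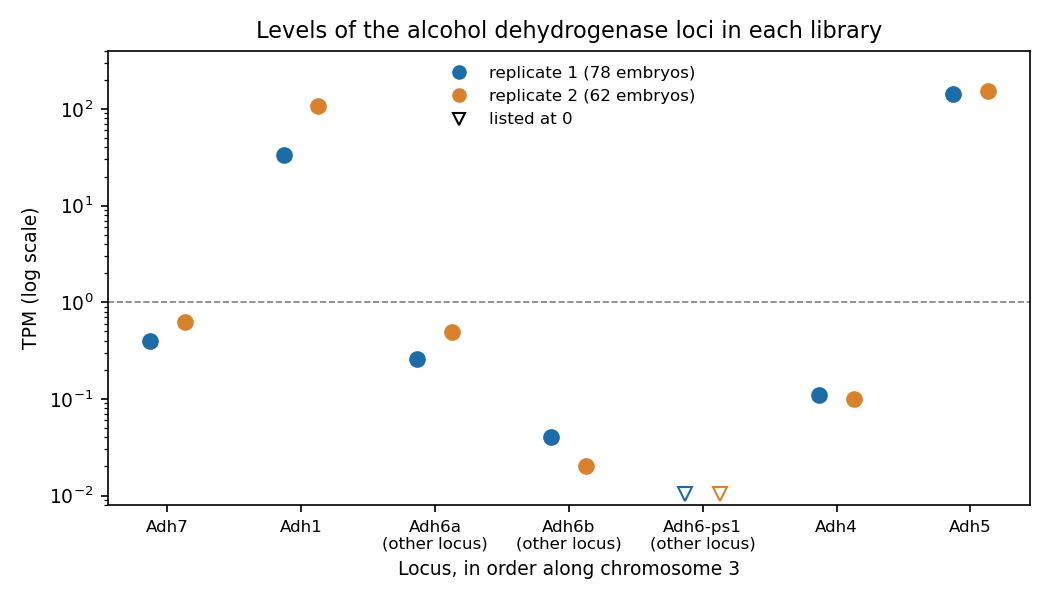
TPM of the 7 alcohol dehydrogenase loci of chromosome 3 in replicate 1 (blue, left) and replicate 2 (orange, right), on a log axis, in chromosomal order. Each point is 1 library, triangles mark loci listed at 0 and the dashed line is 1 TPM: Adh1 and Adh5 stand above it in both libraries, and the points of Adh1 are the farthest apart of the 2 abundant members.

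Adh5, the glutathione-dependent formaldehyde dehydrogenase, was at 143.15 TPM in replicate 1 against 153.84 TPM in replicate 2 (148 ± 7.56 TPM, SD, n = 2). These levels rested on 6507 counts in replicate 1 and 7113 counts in replicate 2, and placed it at rank 994 and rank 949 among 21474 protein-coding genes. The library values are thus close together and both high. Its transcript ENSMUST00000005964, of 9 exons, starts at base 138443093 and carried 96.74% of the gene's TPM in replicate 1 and 98.5% in replicate 2. This start coincides with 1 of the 2 Adh5 starts in RefSeq (GRCm38.p6), the other lying upstream at base 138437200. No Adh5 transcript in the tables begins at the upstream start, so use of the pair of starts was not measured. The bases before the start of the main transcript are shown for their many CG dinucleotides, with each CG dinucleotide in capitals (chr3:138442843-138443092, plus strand).
Adh5 promoter: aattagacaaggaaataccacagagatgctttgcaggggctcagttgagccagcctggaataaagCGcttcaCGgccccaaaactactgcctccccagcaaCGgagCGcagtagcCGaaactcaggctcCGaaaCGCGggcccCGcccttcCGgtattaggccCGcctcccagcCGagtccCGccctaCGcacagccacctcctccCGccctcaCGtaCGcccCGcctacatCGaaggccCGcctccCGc

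These 250 bases hold 21 CG dinucleotides, against a median of 6 over 32851 RefSeq promoter windows of that length, of which 83.7% hold fewer. They also hold 3 copies of GGGCGG (searched on both strands, each copy overlapping a counted CG), a motif present in 32.7% of the windows. The windows of Adh1, Adh4 and Adh7 held no copy, nor did that before the upstream Adh5 start (2 CG dinucleotides, 45.2% GC), which says only that these letters are absent there. TATAAA and CCAAT were searched too, and 12.4% and 33.8% of all windows hold them. Neither was in the windows of Adh1 or the main Adh5 start. Adh7 had 1 TATAAA and 2 CCAAT, Adh4 had 1 CCAAT and the upstream Adh5 start had 1 TATAAA.

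Adh1, the class I enzyme, was at 33.68 TPM in replicate 1 against 106.33 TPM in replicate 2 (70.0 ± 51.4 TPM, SD, n = 2). It had 1288 counts in replicate 1 (95% Poisson interval 1219 to 1360) and 4081 counts in replicate 2 (3957 to 4208). Replicate 2 was the high pool. Its interval lies apart from that of replicate 1, but the family was picked for this difference, so nothing is read from that. Among protein-coding genes Adh1 ranked 4361 in replicate 1 and 1454 in replicate 2. The gene was in the upper part of the expressed range in both pools, although its place within it differed widely. Of the 250 bases before its RefSeq start at base 138277585, which hold 5 CG dinucleotides, those before the earlier start of its main GENCODE transcript at base 138277494 are shown (chr3:138277335-138277493, plus strand, CG in capitals), for comparison with Adh5.
Adh1 promoter: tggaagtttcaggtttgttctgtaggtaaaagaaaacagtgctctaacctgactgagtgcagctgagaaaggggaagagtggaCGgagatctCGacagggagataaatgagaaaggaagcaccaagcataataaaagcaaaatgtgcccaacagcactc

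Adh7, the class IV enzyme, was at 0.40 TPM in replicate 1 against 0.62 TPM in replicate 2 (0.51 ± 0.16 TPM, SD, n = 2). It had 40 counts in replicate 1 (interval 28.6 to 54.5) and 63 counts in replicate 2 (48.4 to 80.6). These 2 intervals overlap, but overlap does not compare the counts directly. The counting interval of the log2 ratio of replicate 1 over replicate 2, scaled as described below, was -1.22 to -0.019. Adh7 was present above the floor of 3 counts in both pools but above only 29.3% of protein-coding genes in replicate 1 and 32.1% in replicate 2. An antisense gene annotated over it, 0610031O16Rik, had 0 counts in both libraries. The bases before its annotated start hold 1 CG dinucleotide (chr3:138217523-138217759, plus strand, CG in capitals), fewer than before either Adh5 start.
Adh7 promoter: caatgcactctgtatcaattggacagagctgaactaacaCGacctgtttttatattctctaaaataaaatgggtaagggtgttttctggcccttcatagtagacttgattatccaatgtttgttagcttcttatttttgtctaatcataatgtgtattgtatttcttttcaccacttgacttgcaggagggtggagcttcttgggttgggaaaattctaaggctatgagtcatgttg

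Adh4, the class II enzyme, had 2 counts in replicate 1 (interval 0.24 to 7.22) and 3 counts in replicate 2 (0.62 to 8.77). Both are at or under the floor of 3 counts, although liver markers such as Alb, the plasma albumin gene, stood at 225.27 TPM in replicate 1 against 67.65 TPM in replicate 2. In TPM Adh4 was at 0.11 in replicate 1 and 0.10 in replicate 2. The order of its TPM is opposite to that of its counts because the authors' quantification gave the gene a length of 695 bases in replicate 1 and 1092 in replicate 2. No difference between the pools can be read from so few counts.

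The remaining loci of the cluster were rarer than Adh7. Adh6a had 10 counts in replicate 1 and 19 in replicate 2 (0.26 and 0.49 TPM), and Adh6b had 2 counts in replicate 1 and 1 in replicate 2. The pseudogene Adh6-ps1 had 0 counts in both (interval 0 to 3.69 in each). The floor of 3 counts corresponds to 0.036 TPM for this locus. None of these 3 loci reached 1 TPM. The protein-coding gene next to Adh5, Metap1, a methionine aminopeptidase gene on the opposite strand, had 2831 counts in replicate 1 and 2888 in replicate 2, and the one next to Adh7, 4930579F01Rik, had 8 and 10.

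On the TPM scale Adh5 stood above Adh1 by 2.09 log2 units in replicate 1 and by 0.53 in replicate 2 (mean 1.31 ± 1.10, SD, n = 2). The order of this pair was the same in both libraries, but the spread of its distance nearly equals the distance. Adh1 stood above Adh7 by 6.40 and 7.42 log2 units in replicates 1 and 2 (6.91 ± 0.73), far beyond the spread. Adh7 stood above Adh4 by 1.86 and 2.63 (2.25 ± 0.54), a distance that rests on the few Adh4 counts. Summed over members, the family held 177.34 TPM in replicate 1 against 260.89 TPM in replicate 2. Adh5 made up 80.7% of this sum in replicate 1 and 59.0% in replicate 2, and Adh1 made up 19.0% in replicate 1 and 40.8% in replicate 2.

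The counts of the members were whole numbers in both libraries, at a tolerance of 0.005. Their coding sequences were 61.3% (Adh4 and Adh7) to 69.1% (Adh1 and Adh7) identical over aligned bases. No window of 100 bases from the main transcript of a member, 0 of 1393 for Adh1 and 0 of 1505 for Adh5, occurred in an M21 transcript of another gene. The window length is the read length implied by the deposited lengths and effective lengths. The antisense gene Gm16559, which overlaps Adh1, had 8 counts in each library, few beside those of Adh1. Whether the counting used strand is not stated, so reads of Gm16559 and Adh1 cannot be told apart where they overlap.

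The pools were compared by the log2 ratio of replicate 1 over replicate 2, scaled by TMM library sizes. The median of all tested genes then lay at 0.0030. The ratio of Adh1 was -1.62 (95% counting interval -1.71 to -1.53), that is, 3.08-fold lower in replicate 1. Of the 3 members whose counts summed to at least 10, Adh1 alone was past 2-fold, against 9.82% of all 20918 genes tested (1.98% lower and 7.84% higher in replicate 1). Because the family was picked on this contrast, nothing is read from that count. All 3 had a ratio below 0, as did 49.4% of the genes tested. The ratio of Adh5 was -0.086 (-0.13 to -0.038) and that of Adh7 was -0.61 (-1.22 to -0.019). Adh4, with 5 counts, was not tested, and its ratio could lie between -4.12 and 2.58. With the spike-ins as scale the library sizes moved by 0.68 log2 units against each other, which put Adh1 at -0.94, short of 2-fold. Adh5, Adh7 and Adh4 then had the opposite sign (0.59, 0.066 and 0.11).

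**Figure D2:**
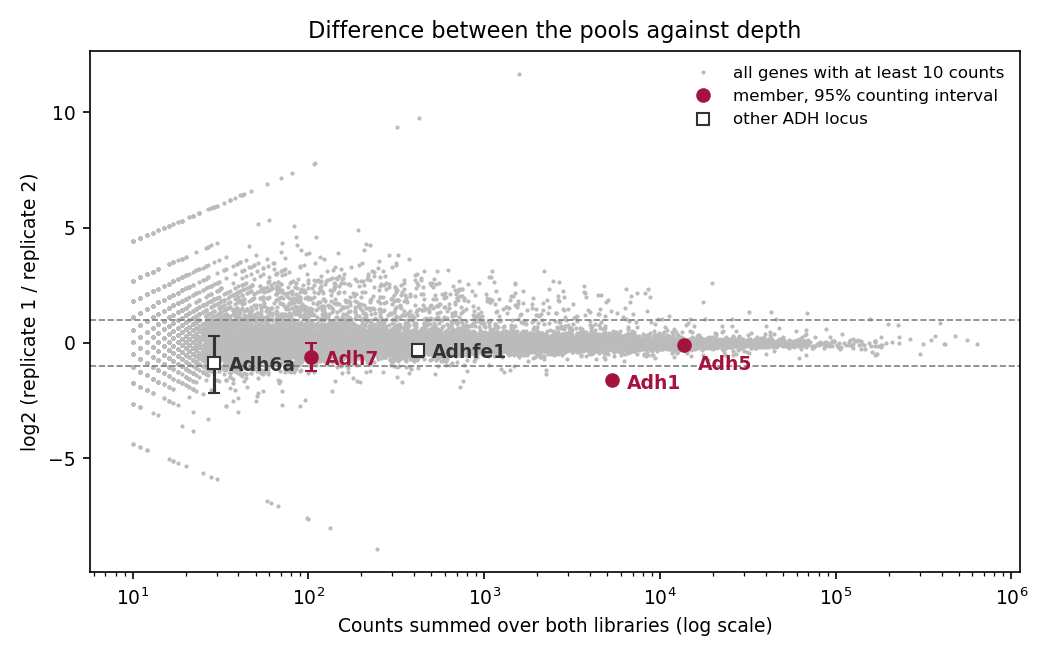
Log2 ratio of replicate 1 over replicate 2 against the counts summed over both libraries (log axis) for the 20918 genes tested (grey). Members are red circles and other ADH loci open squares with 95% counting intervals, and dashed lines mark 2-fold: Adh1 lies at -1.62 and 5369 counts, below the grey cloud at that depth, while Adh5 lies at -0.086.

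With a minimum of 50 counts 860 genes were past 2-fold, against 2055 with a minimum of 10, so Adh1 was also set beside genes with many counts. With at least 1000 summed counts, a limit set after the values were seen, 6 of 10776 genes (0.0557%) were past 2-fold lower in replicate 1, and Adh1 had the lowest ratio of them. The other 5 were the skeletal muscle actin gene Acta1 (-1.33), Gm14296 (-1.26), the mitochondrial ribosomal protein gene Mrpl23 (-1.19), Nepn (-1.15) and the giant sarcomere protein gene Ttn (-1.13). The counts of Gm14296 and Mrpl23 were fractional, so reads were shared with other features, and their ratios are uncertain. Over all 20918 genes tested, 134 (0.641%) had a ratio at or below that of Adh1, itself included. Because the family was picked for this ratio, its place among other genes is a description only.

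Adh1 was further set beside 2242 protein-coding genes with whole counts, a summed count of at least 100 and a mean TPM within 2-fold of its own. None of them had a ratio at or below that of Adh1, and 0 were past 2-fold lower and 12 past 2-fold higher in replicate 1. The 5 with the nearest ratio over these 2 libraries were the glucagon gene Gcg (-0.79), the urea cycle gene Cps1 (-0.75), the serpin gene Serpini2 (-0.71), the cardiac actin gene Actc1 (-0.68) and Mttp (-0.65), which loads lipid onto lipoproteins. Gcg was at 75.53 TPM in replicate 1 against 133.3 TPM in replicate 2. The nearest of these genes thus lay 0.83 log2 units away from Adh1, and likeness over 2 libraries says nothing of shared control. Adh1 was picked for its ratio, so nothing is read from its distance to these genes.

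The Adh1 counts were divided among annotated transcripts by the authors' quantification. The protein-coding transcript ENSMUST00000004232 (9 exons, 1125 coding bases) was at 21.11 TPM in replicate 1 against 63.92 TPM in replicate 2. The transcript ENSMUST00000159159 (8 exons), annotated as a target of nonsense-mediated decay, the pathway that destroys messages with an early stop, was at 11.23 TPM in replicate 1 against 40.89 TPM in replicate 2. Both were higher in replicate 2, by 3.03-fold and 3.64-fold. The shorter one uses the first 21 of the 102 bases of exon 2, leaves out the third exon of the long one, and has an annotated reading frame of 132 bases. The junctions after the second exon that tell the transcripts apart are shown, with the first 20 bases after the junction in capitals.
ENSMUST00000004232 junction: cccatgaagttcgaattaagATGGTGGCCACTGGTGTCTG
ENSMUST00000159159 junction: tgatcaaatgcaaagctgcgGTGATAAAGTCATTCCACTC

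The long junction joins chr3:138279731-138279832 to chr3:138280374-138280512, and the short one joins chr3:138279731-138279751 to chr3:138282436-138282523. The share of Adh1 TPM on the coding transcript was 62.67% in replicate 1 and 60.11% in replicate 2, and that on the decay target 33.35% and 38.45%. The split between these transcripts was thus alike in pools whose Adh1 level differed 3.08-fold. The retained-intron transcript ENSMUST00000161799 was the exception, with 1.34 TPM in replicate 1 against 1.53 TPM in replicate 2 on 27.91 and 31.94 estimated counts, and ENSMUST00000162032, with the upstream start, was listed at 0 in both. Among Adh5 transcripts, the retained-intron transcript ENSMUST00000159392 was at 2.31 TPM in replicate 1 against 0.16 TPM in replicate 2, a small share beside the coding transcript.

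**Figure D3:**
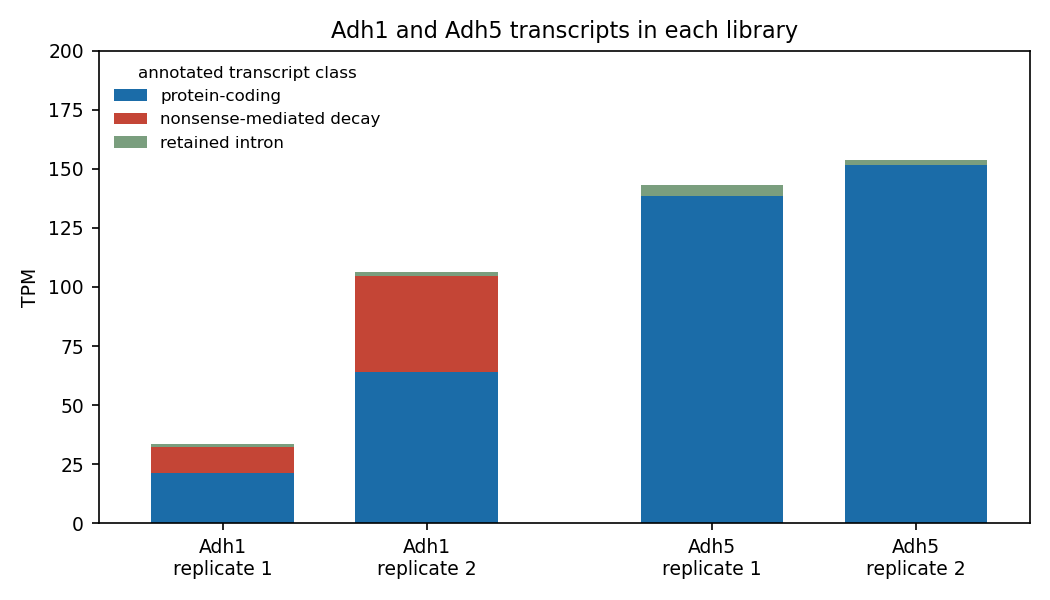
TPM of Adh1 and Adh5 in each library, stacked by annotated transcript class. Each bar is 1 library: the coding and decay-target parts of Adh1 are both taller in replicate 2, and the coding transcript makes up 96.74% and 98.5% of the Adh5 bars in replicates 1 and 2.

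Genes that act beside the family were followed on lists. Of 63 genes on 6 lists (other ADH loci, related medium-chain enzymes, aldehyde dehydrogenases, retinol oxidation and storage, formaldehyde and glutathione, other ethanol oxidation) 52 were at 1 TPM or more in both libraries. Of the 57 with at least 20 counts 0 were past 2-fold lower and 2 past 2-fold higher in replicate 1, against 1.13% lower and 6.2% higher (7.33% in all) of the 19303 genes with that many counts. A share this near to that of all genes says nothing particular of the lists. Those 2 were Aldh8a1 (1.57, at 1.76 TPM in replicate 1 against 0.61 TPM in replicate 2) and Rbp4, the plasma carrier of retinol (1.04, at 166.37 and 82.26 TPM). Neither shared the direction of Adh1.

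Of 20 aldehyde dehydrogenases 18 were detected, with medians of 27.7 TPM in replicate 1 against 29.6 TPM in replicate 2 and a median ratio of -0.076, beside -0.0015 for all genes with 20 counts. The highest were the mitochondrial Aldh1b1 (104.22 TPM in replicate 1 against 152.46 TPM in replicate 2, ratio -0.51) and Aldh2, the main enzyme of acetaldehyde removal (110.36 and 104.22 TPM, ratio 0.082). They were followed by Aldh18a1, an enzyme of proline synthesis (82.16 and 98.36 TPM), and the lysine-pathway enzyme Aldh7a1 (74.91 and 86.12 TPM). Aldh1b1 was the list member with the lowest ratio.

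Among 18 genes of retinol oxidation and storage 13 were detected. The retinal reductase Dhrs3 was at 91.48 TPM in replicate 1 against 95.25 TPM in replicate 2 and Dhrs4 was at 68.77 and 72.02 TPM. These values and Rdh10 (21.34 and 22.91 TPM), the retinol dehydrogenase of embryonic retinoic acid synthesis, were close between the pools. The median ratio of the list was 0.077.

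All 6 formaldehyde and glutathione genes, the metabolic partners of Adh5, were detected, with medians of 64.9 TPM in replicate 1 against 60.7 TPM in replicate 2. Esd, which hydrolyses the S-formylglutathione made by Adh5, was at 263.01 TPM in replicate 1 against 272.18 TPM in replicate 2. The glutathione reductase gene Gsr was at 79.29 and 86.83 TPM, the thioredoxin reductase gene Txnrd1 at 61.63 and 75.55 TPM, and Gclm, a subunit of the enzyme that begins glutathione synthesis, at 68.11 and 45.81 TPM. Their ratios lay between -0.26 and 0.45. The list of other ethanol oxidation also takes in genes of neighbouring steps. Its highest were the aldehyde reductase Akr1a1 (599.53 TPM in replicate 1 against 624.94 TPM in replicate 2) and the catalase gene Cat (85.78 and 102.97 TPM). The level of a reductase is not read as ethanol oxidation. The acetate-activating enzymes Acss1 (22.79 and 25.13 TPM) and Acss2 (11.45 and 10.91 TPM) followed. Cyp2e1, the ethanol-oxidising cytochrome, was below 1 TPM in both, with 14 counts in replicate 1 and 7 in replicate 2.

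Markers of several tissues differed between the pools beside Adh1, some in its direction and some against it. Striated muscle markers were lower in replicate 1 for 7 of 7 genes, 4 of them past 2-fold, beside 50.3% of all genes with at least 20 counts below 0 and 1.13% past 2-fold lower, with summed levels of 51.4 TPM in replicate 1 against 104 TPM in replicate 2 and a median ratio of -1.32. Exocrine pancreas markers were lower for 7 of 8 (sums 7308 TPM in replicate 1 against 9831 TPM in replicate 2, median ratio -0.41) and intestinal markers for 7 of 9 (sums 881 and 1092 TPM, median -0.22). None of either list was past 2-fold lower, and 1 intestinal marker, the sucrase-isomaltase gene Sis, was past 2-fold higher (1.98, on 32 counts in replicate 1 and 8 in replicate 2). The highest muscle markers were Acta1 (ratio -1.33), the troponin gene Tnnt2 (-0.42) and the myosin light chain gene Myl1 (-0.97). The highest pancreatic ones were the lipase-related Pnliprp1 (-0.49) and the chymotrypsinogen gene Ctrb1 (-0.28), and the highest intestinal ones the fatty acid carriers Fabp1 (-0.19) and Fabp2 (-0.14) and the lectin gene Lgals4 (-0.41). With spike-in sizes each ratio would rise by about 0.68 log2 units, which would put the pancreatic and intestinal medians above 0. The striated muscle median would stay below 0. The part of these tissues in the Adh1 difference was not tested.

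Liver markers, from another organ known to express Adh1, went the other way, higher in replicate 1 for 12 of 14 genes and past 2-fold for 9, beside 6.2% of all genes with at least 20 counts past 2-fold higher (sums 2551 TPM in replicate 1 against 1346 TPM in replicate 2, median ratio 1.38). Forestomach squamous markers were higher in replicate 1 for 12 of 12, with 6 past 2-fold (sums 2343 and 1128 TPM, median 0.89). Gastric mucous markers were higher for 7 of 8, with 3 past 2-fold (379 and 204 TPM, median 0.60). Red cell markers were higher for 8 of 8, with 6 past 2-fold (14650 and 7905 TPM, median 1.15). Of all genes with at least 20 counts 50.3% had a ratio below 0. The 2 liver markers lower in replicate 1 were Cps1 (-0.75), also among the 5 genes nearest in ratio to Adh1, and Apob (-0.36). The highest liver markers were the apolipoprotein genes Apoa1 (0.26) and Apoa2 (1.76) and the fetal albumin relative Afp (1.33). The highest forestomach ones were the keratin genes Krt4 (1.31), Krt13 (1.02) and Krt5 (0.73). Among mucous markers the trefoil genes Tff1 (0.44) and Tff2 (0.46) and the surface antigen gene Psca (2.07) led, and among red cell markers the globin genes Hba-a1 (1.02) and Hbb-bt (0.82) and the haem synthesis gene Alas2 (0.80). The mucin gene Muc5ac was the 1 mucous marker lower in replicate 1 (-1.21). General epithelial markers (led by Krt8, Krt19 and Krt18), mesenchymal markers (Acta2, Actg2 and Tagln) and endothelial markers (Egfl7, Eng and Pecam1) had median ratios between -0.11 and 0.0064. The median was 0.13 for macrophage markers (Lyz2, Tyrobp and Fcer1g) and 0.29 for mesothelial ones (Upk3b, Upk1b and Msln). No marker on the 12 lists was at 0 in both libraries. Whether these shifts bear on the Adh1 level was not tested, and with 1 library a pool the difference has no replicate check.

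**Figure D4:**
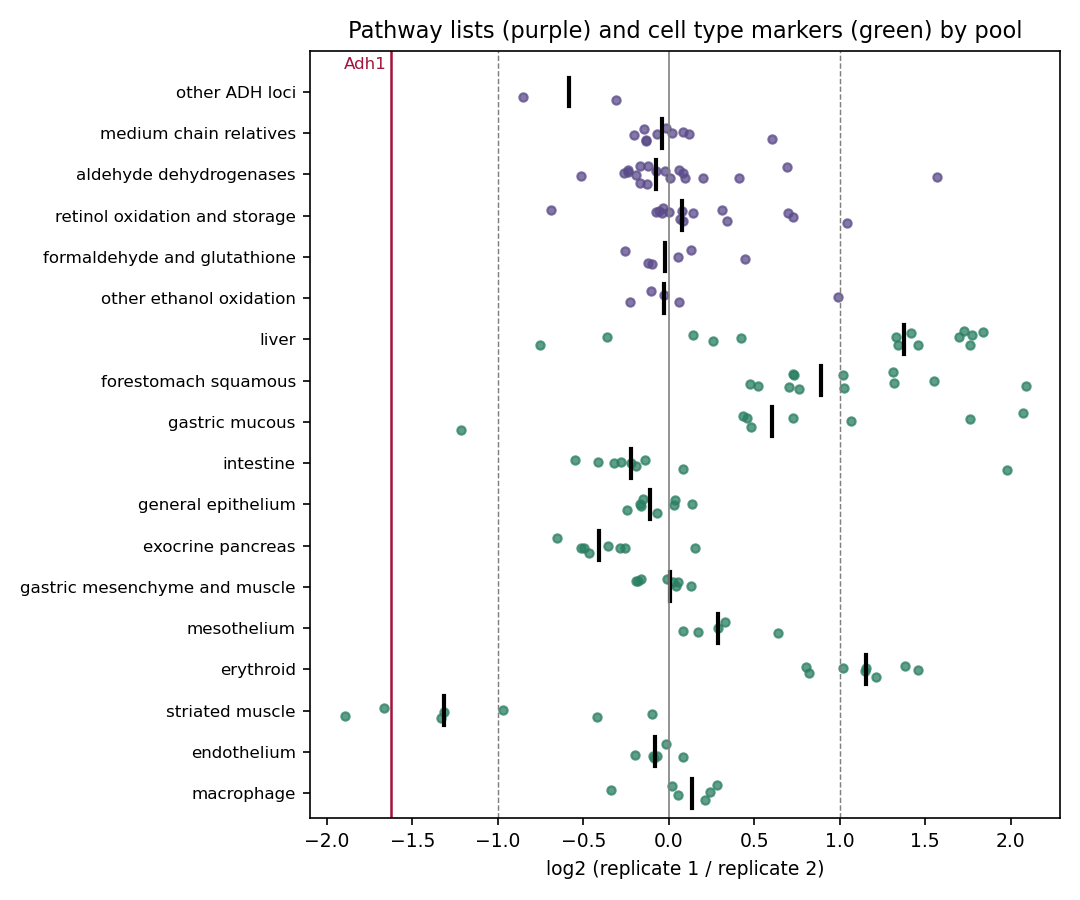
Log2 ratio of replicate 1 over replicate 2 for each gene with at least 20 counts on the 6 pathway lists (purple) and 12 marker lists (green), with black bars at list medians, dashed lines at 2-fold and a red line at Adh1 (-1.62). No pathway gene lies past 2-fold on the Adh1 side, and the striated muscle markers (median -1.32) are the list nearest to the red line.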

How the data were processed

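For each library the authors deposited 1 table of genes and 1 of transcripts; the build was mm10 and the annotation M4, per the text files that accompany them. The RNA was extracted with a mirVana kit, sized above 200 nucleotides and used at 10 ng, per the labels. Aligner, quantifier and strand setting are not given in the sources used here. Per the file headers the deposited tables hold expected counts, TPM, FPKM and the percent of gene TPM that each transcript holds. Symbols came from GENCODE M21 (98.0% of genes matched). Expected counts were rounded. Library sizes used TMM over genes whose counts summed to at least 10 (edgeR 4.0.16), and ratios a prior count of 0.5. Spike-ins and 26249 features with numeric IDs or phiX (86 and 85 counts in replicates 1 and 2) were left out. Count intervals are exact Poisson and ratio intervals exact Clopper-Pearson, at 95%. No test was run, since each pool has 1 library and the family was picked on this contrast. The ratio calculation was tested on simulated counts. Identity came from global alignments (Biopython 1.88). The members and lists were chosen with earlier results of these data known. The genes named are the members, other Adh loci and Adhfe1, and from each pathway list the 4 highest and all past 2-fold. The highest of each marker list and the 5 nearest in ratio to Adh1 are named too. Barx1, Alb, Apob, Rdh10, Muc5ac, Sis, Sord and the 5 deep genes beside Adh1 were picked after their values were seen. The cluster's neighbours were picked by place. Some genes that the rule takes are not reported here. Alternatives covered DESeq2 1.42.0 size factors, totals, spike-ins, count minimums, prior counts, units, transcript sums, thresholds and each library alone.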

Additional observations from a re-analysis of the deposited data

How the results depend on the processing

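Of 93 values under alternative settings, over 16 results, 74 stayed within the counting interval, the spread or 1.5 times the count. Among called values 0 changed sign. A single library always falls within the SD of 2 libraries, so those agreements were fixed in advance. Adh1 at 33.68 TPM in replicate 1 alone and at 106.33 TPM in replicate 2 alone both counted as within it. Transcript sums repeat the gene values but for rounding. The 74 therefore overstates how stable the results are. The Adh1 ratio lay between -1.66 and -1.61 under the other sizes, minimums, prior counts, units and transcript sums, and at -0.94 with spike-in sizes. Those sizes also gave 0.59 for Adh5, 0.066 for Adh7 and 0.11 for Adh4, and the TPM ratio of Adh4 was 0.14 against -0.45. Of the genes past 2-fold, 2055 in all, 20.2% were lower in replicate 1. With spike-in sizes there were 3922 (3.21% lower), with no count minimum 5735 (33.6% lower), and with at least 50 counts 860 (9.77% lower). At 1.5-fold there were 3571 and at 3-fold 1117, and of the pathway genes 9 and 0. Posterior-mean TPM put Adh4 at 0.375 and Adh7 over Adh4 at 0.41 log2 units, and counts per annotated length put that pair at 2.999. FPKM gave 0.075 for Adh4, 102 for Adh5 and 0.35 for Adh7, and TPM over genes only gave 157 for Adh5. As shares of counts the main transcripts held 69.1% of Adh1 and 99.1% of Adh5. No paired analysis was possible because the study has 1 group. Depth limits Adh4, Adh6b and Adh6-ps1, which had 5 or fewer counts in all.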

Other observations

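Adhfe1, an iron-dependent dehydrogenase on chromosome 1 that shares the name but not the zinc enzyme fold, was at 3.01 TPM in replicate 1 against 3.86 TPM in replicate 2, with 184 and 235 counts and a log2 ratio of -0.31. Its transcript ENSMUST00000027044, annotated as a decay target in M21, carried 94.77% of its TPM in replicate 1 and 84.52% in replicate 2. The transcript annotated as protein-coding, ENSMUST00000144177, was at 0.14 TPM in replicate 1 against 0.13 TPM in replicate 2.

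All 10 medium-chain relatives of the family were detected, with summed levels of 346.47 TPM in replicate 1 against 346.72 TPM in replicate 2. The highest were Cryzl1 (61.23 TPM in replicate 1 against 62.2 TPM in replicate 2), the prostaglandin reductase Ptgr1 (54.4 and 52.55 TPM), the mitochondrial fatty acid synthesis enzyme Mecr (47.22 and 53.83 TPM) and Vat1 (51.12 and 48.36 TPM). The sorbitol dehydrogenase gene Sord had the largest ratio of the 10, 0.61 (it was picked for this after the values were seen), at 40.91 TPM in replicate 1 against 27.54 TPM in replicate 2.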
